A study of Mus musculus with 24 samples.

Results

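Synaptopodin genes and genes of the muscle Z-disc were followed in C2C12 muscle tissue that had been made to contract by light. The members were 10 genes picked by name, of 56941 genes listed: the synaptopodin genes Synpo2l, Synpo2, and Synpo, the Z-disc genes Myot and Cmya5, the myozenins Myoz1, Myoz2, and Myoz3, and the sarcomeric alpha-actinins Actn2 and Actn3. C2C12 is a line of mouse myoblasts, muscle precursors that can be grown into fused, contractile fibres called myotubes. All groups, the controls included, were the ChR2::tdTomato line, in which blue light opens a channel in the cell membrane, and all were differentiated as monolayers on grooved fibrin in medium with horse serum and IGF-1. RNA was sequenced from the experiment in which tissues were stimulated daily for 60 min at 1, 4, or 10 Hz or were left unstimulated, with 6 biological replicates of this 1 cell line in each of the 4 groups. Controls were not illuminated, so light and contraction cannot be told apart, and tissues of all groups could also twitch spontaneously. Library depth ran from 8052369 to 18159144 estimated counts. Levels are given as counts per 1000000 (CPM) scaled by TMM where libraries are compared, and as transcripts per 1000000 (TPM), which is per transcript length, where genes are compared.

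The Z-disc is the border between neighbouring sarcomeres, where alpha-actinin crosslinks the thin filaments of both sides. Actn2 is made in all muscle fibres and in the heart, and Actn3 in fast fibres. Myozenins bind alpha-actinin and hold the phosphatase calcineurin at the Z-disc, myotilin (Myot) binds alpha-actinin and filamin C, and myospryn (Cmya5) is a very large protein that binds alpha-actinin and desmin near the Z-disc. Synpo2l and Synpo2 are actin-binding Z-disc proteins of striated muscle, the latter also taking part in the removal of damaged filamin with Bag3. Synpo is best known from the foot processes of kidney podocytes and the dendritic spines of neurons.

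Each myozenin gene lies beside a synaptopodin gene in the mouse genome, as the GENCODE annotation of GRCm39 shows, and within each pair both genes are on the minus strand with the synaptopodin gene upstream. Myoz1 (chr14:20697005-20706608) and Synpo2l (chr14:20707961-20718422) are 1.35 kb apart. Myoz3 (chr18:60706085-60724972) and Synpo (chr18:60726087-60793214) are 1.11 kb apart, and no annotated gene lies between the genes of either pair. Myoz2 (chr3:122797610-122828664) and Synpo2 (chr3:122870168-123029798) are 41.5 kb apart, with 0 protein-coding genes and 2 other annotated genes between them. Of the other members, Myot is at chr18:44467097-44490585 on the plus strand. Cmya5 (chr13:93177210-93281327), Actn2 (chr13:12281303-12356693), and Actn3 (chr19:4911215-4928529) are on the minus strand. Neighbours did not share a level, as the TPM values below show.

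**Figure D1:**
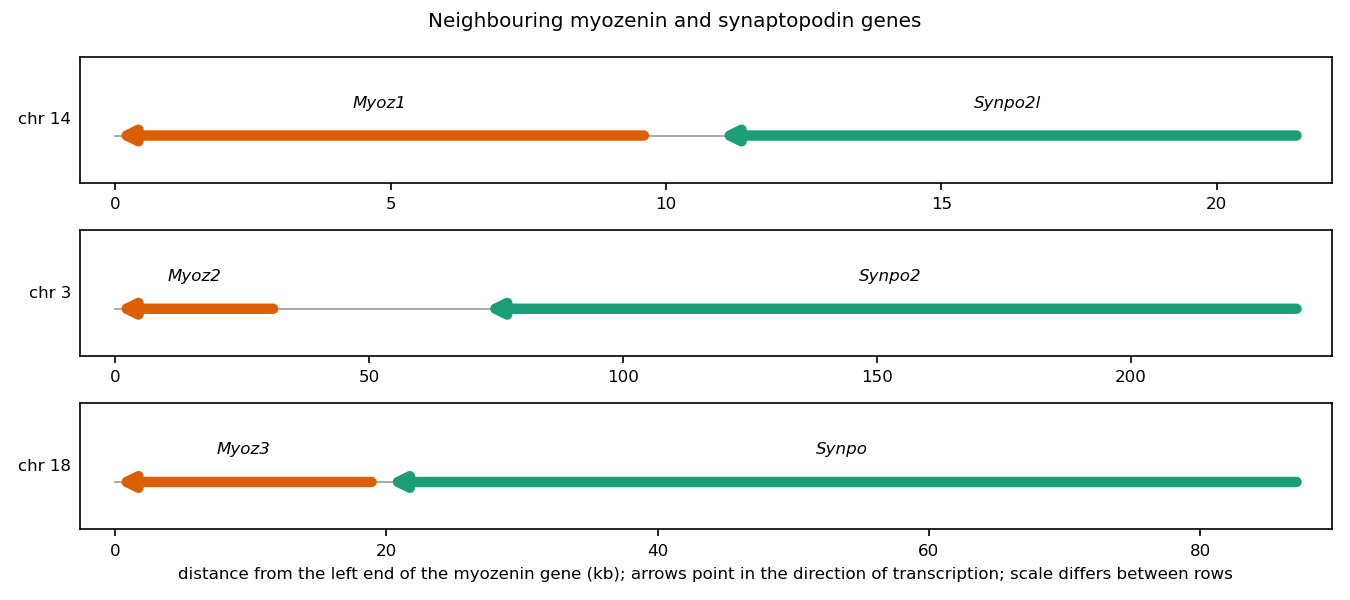
Map of the 3 myozenin and synaptopodin gene pairs, with distance in kb from the left end of the myozenin gene on the horizontal axis (each row has its own scale) and arrows in the direction of transcription. The gaps are 1.35 kb for Myoz1 and Synpo2l, 41.5 kb for Myoz2 and Synpo2, and 1.11 kb for Myoz3 and Synpo.

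RefSeq promoter windows, from 250 bases before to 50 after a transcription start (table build GRCm38.p6), were held for 5 members, with 2 windows for Synpo2l, and each of the 6 windows matched GRCm39 exactly once on its chromosome. Motifs of muscle promoters were searched on both strands: the MEF2 motif (CTA, any 4 of A or T, TAG), the CArG box (CC, any 6 of A or T, GG), the E-boxes CAGCTG and CACCTG, and the MCAT motif CATTCC. The MEF2 motif was matched in 1 window each of Synpo2l, Synpo2, and Myoz2, against 0.557% of all 32851 windows of the table. Bases before the transcription start are printed for these 3 genes, 5′ to 3′ with their GRCm39 position, because they include both genes of the Myoz2 and Synpo2 pair and the member that fell at both 1 and 4 Hz. Capitals mark the matches. In the Myoz2 sequence, 28 bases lie in an annotated UTR of the gene.
Synpo2l, chr14:20718423-20718672, minus strand: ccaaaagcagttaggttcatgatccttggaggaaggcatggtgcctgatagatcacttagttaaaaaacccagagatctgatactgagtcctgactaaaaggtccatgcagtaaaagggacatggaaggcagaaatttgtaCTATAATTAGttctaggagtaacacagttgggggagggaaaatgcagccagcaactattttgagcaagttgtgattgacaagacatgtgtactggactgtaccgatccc
Synpo2, chr3:123029799-123030048, minus strand: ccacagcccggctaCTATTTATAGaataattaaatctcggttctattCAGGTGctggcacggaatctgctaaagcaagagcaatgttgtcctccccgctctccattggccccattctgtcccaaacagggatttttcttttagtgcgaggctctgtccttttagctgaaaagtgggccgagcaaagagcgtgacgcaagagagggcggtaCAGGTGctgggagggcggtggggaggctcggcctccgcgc
Myoz2, chr3:122828637-122828886, minus strand: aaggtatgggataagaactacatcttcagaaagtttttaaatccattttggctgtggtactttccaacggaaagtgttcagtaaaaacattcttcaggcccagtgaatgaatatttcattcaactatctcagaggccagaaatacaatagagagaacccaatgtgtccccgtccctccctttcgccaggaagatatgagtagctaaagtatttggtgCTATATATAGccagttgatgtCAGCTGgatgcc
In Synpo2l the match CTATAATTAG lies at -109 to -100, counted from the transcription start, in Synpo2 the match CTATTTATAG lies at -236 to -227, and in Myoz2 the match CTATATATAG lies at -33 to -24. CAGCTG, which 16.3% of all windows hold, was matched at -12 to -7 in Myoz2 and in the second, downstream window of Synpo2l. CACCTG, held by 20.2% of all windows, was matched on the opposite strand in Synpo2 (printed as CAGGTG) at -203 to -198 and -40 to -35, and in the second window of Synpo2l. The CArG box (1.63% of all windows) and CATTCC (14.7%) were matched in none of the 6 windows, and none of the 5 motifs was matched in the windows of Actn2 and Cmya5. A match describes the letters only.

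In unstimulated tissue the order of the members by TPM spanned a wide range. Actn3 was the highest (296 TPM ± 29.4, SD, n = 6), followed by Myoz2 (216 ± 19.2), Synpo2l (92.0 ± 3.81), Actn2 (85.6 ± 9.50), and Myot (48.0 ± 5.24). Below these were Synpo2 (25.2 ± 1.54), Synpo (8.65 ± 0.245), Myoz1 (3.62 ± 0.761), Cmya5 (1.61 ± 0.328), and Myoz3 (0.131 ± 0.0960). Only Synpo2l and Actn2 overlapped among neighbours of this order in the controls. At the 2 short gaps, the synaptopodin gene was far above its myozenin neighbour (Synpo2l above Myoz1, Synpo above Myoz3), whereas at the third pair the myozenin, Myoz2, was above Synpo2. In the stimulated groups Synpo2l came after Actn2 in the order, and at 1 and 4 Hz its TPM overlapped that of Myot (46.3 ± 7.03 against 44.2 ± 11.3 at 1 Hz, and 40.1 ± 6.71 against 38.9 ± 7.17 at 4 Hz). Actn3 and Myoz2 stayed first and second in all 4 groups, but overlapped at 1 and 4 Hz.

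**Figure D2:**
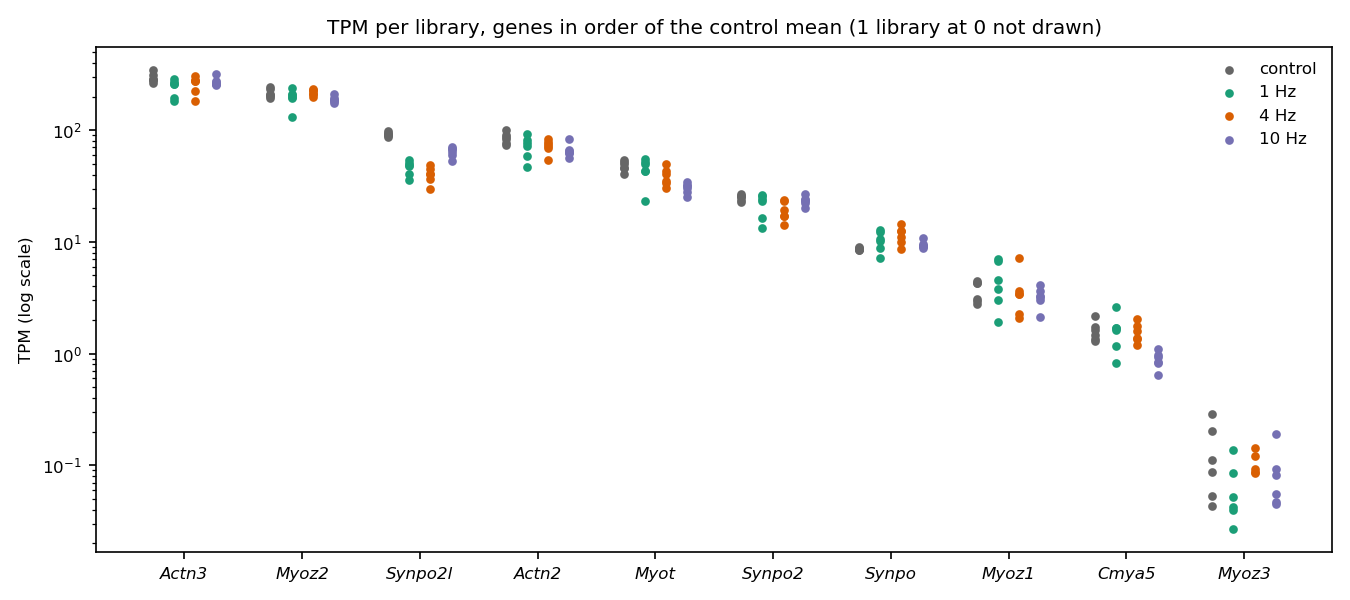
TPM of each gene in each of the 24 libraries on a log axis, with the genes in order of their mean in the controls and 1 point per library, coloured by group (1 library with Myoz3 at 0 cannot be drawn). The order runs from Actn3 at 296 TPM to Myoz3 at 0.131 TPM in the controls, and Synpo2l is the gene whose control points stand above the points of all stimulated libraries.

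The list was drawn up with results of the 10 Hz against control comparison known, so values at 10 Hz are a description and are given with no test. The comparisons of 1 and of 4 Hz with control share the 6 control libraries with each other and with that comparison, so they are not independent of it. The comparison of 4 with 1 Hz sets none of those libraries against each other. Its gene filter, scaling, and estimate of spread still come from the fit of all 24 libraries. Of the 10 members, 9 passed the filter on low counts (Myoz3 did not). In bulk RNA, fewer cells of a type and less RNA per cell cannot be told apart.

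Synpo2l fell at 1 and at 4 Hz. Its CPM ran from 204 to 243 in the controls (median 219), from 109 to 160 at 1 Hz (126), from 113 to 132 at 4 Hz (120), and from 142 to 166 at 10 Hz (156). Every stimulated library was below every control library, the 10 Hz libraries lay above all 4 Hz libraries, and the 1 and 4 Hz libraries overlapped. The 10 and 1 Hz libraries also overlapped, with 2 libraries at 10 Hz above every 1 Hz library. Against control, the log2(fold change) of Synpo2l was -0.77 at 1 Hz (SE 0.076, adjusted p = 3.73e-08, edgeR) and -0.86 at 4 Hz (SE 0.076, adjusted p = 3.78e-09), or falls of 41.4% and 44.8%. Between 4 and 1 Hz the log2 difference was -0.09 (95% interval -0.24 to 0.06, adjusted p = 0.667). At 10 Hz the log2(fold change) was -0.50 against control, 0.27 against 1 Hz, and 0.35 against 4 Hz. As a description, the median level of Synpo2l at 10 Hz lay between those of the controls and of the lower frequencies.

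Synpo, by contrast, rose at 4 Hz. Its CPM ran from 25.0 to 27.6 in the controls (median 26.9), from 22.1 to 40.7 at 1 Hz (31.6), from 31.9 to 48.9 at 4 Hz (42.6), and from 25.8 to 31.0 at 10 Hz (27.4). In CPM, all 4 Hz libraries were above all controls and above all 10 Hz libraries. At 1 Hz, 5 libraries were above every control in CPM and 1 was below. The log2(fold change) at 4 Hz was 0.64 (SE 0.11, adjusted p = 3.87e-05), or 55.7% higher. At 1 Hz it was 0.27 (SE 0.11, adjusted p = 0.0537), and between 4 and 1 Hz 0.37 (95% interval 0.15 to 0.58, adjusted p = 0.321), neither past the threshold of 0.05. Of 4 podocyte markers 2 passed the filter, with Nphs1 under 0.1 TPM on average, and their summed TPM had medians of 5.67 in the controls and 5.10 at 4 Hz. Of these 2, Wt1, a transcription factor of podocytes, rose at 4 Hz with Synpo, from a mean of 1.78 to 2.68 CPM (log2 difference 0.61, adjusted p = 0.0159, edgeR), whereas Podxl was at -0.04 (adjusted p = 0.756, edgeR). Of 4 neuronal markers 2 passed, with Snap25 and Rbfox3 under 0.1 TPM on average, and the medians were 4.66 and 3.96 TPM. The part of these markers in the rise of Synpo was not tested.

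Synpo2 did not pass the test at 1 or 4 Hz. Its CPM ran from 123 to 138 in the controls (median 131), from 97.2 to 142 at 1 Hz (129), from 112 to 140 at 4 Hz (117), and from 113 to 134 at 10 Hz (118), so that the groups overlapped. The log2(fold change) was -0.06 at 1 Hz (95% interval -0.21 to 0.10, adjusted p = 0.606) and -0.09 at 4 Hz (-0.25 to 0.07, adjusted p = 0.365). On the log2(TPM + 1) scale its value at 4 Hz was -0.40 (adjusted p = 0.025, limma), where the median of all genes also moved.

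Myot and Cmya5 had their low values at 10 Hz. Myot ran from 50.8 to 73.6 CPM in the controls (median 61.7), from 34.4 to 101 at 1 Hz (67.5), from 56.7 to 77.8 at 4 Hz (61.9), and from 31.7 to 48.9 at 10 Hz (40.8). Cmya5 ran from 9.51 to 17.0 CPM in the controls (median 12.1), from 7.19 to 21.0 at 1 Hz (13.2), from 11.9 to 17.3 at 4 Hz (15.7), and from 5.70 to 8.13 at 10 Hz (7.03). For both genes, all 10 Hz libraries were below all controls and all 4 Hz libraries, and 1 low library at 1 Hz, replicate 3, overlapped with them. The log2(fold change) of Myot at 10 Hz was -0.64 against control, -0.75 against 1 Hz, and -0.65 against 4 Hz, and that of Cmya5 was -0.84, -1.04, and -1.10. At 1 and 4 Hz against control neither passed the test. Myot had values of 0.12 (95% interval -0.19 to 0.42, adjusted p = 0.583) and 0.01 (-0.29 to 0.32, adjusted p = 0.958). Cmya5 had values of 0.20 (-0.14 to 0.54, adjusted p = 0.373) and 0.26 (-0.08 to 0.60, adjusted p = 0.213).

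Among the myozenins, Myoz2, the form of slow fibres and the heart, rose at 4 Hz. Its CPM ran from 118 to 148 in the controls (median 124), from 93.7 to 203 at 1 Hz (130), from 144 to 200 at 4 Hz (168), and from 102 to 133 at 10 Hz (111). In the 4 Hz group 5 of 6 libraries were above every control. The log2(fold change) was 0.37 at 4 Hz (SE 0.13, adjusted p = 0.0215) and 0.14 at 1 Hz (SE 0.13, adjusted p = 0.421). The 4 Hz call was lost when control replicate 3 was left out (0.33, adjusted p = 0.0565). It was also lost without control replicate 5 (0.34, adjusted p = 0.0526) and without the 4 Hz library of replicate 3 (0.29, adjusted p = 0.0809). The same happened with no filter on low counts (0.33, adjusted p = 0.0859) and on the log2(TPM + 1) scale (0.01, adjusted p = 0.933).

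Myoz1, a fast-fibre form, stayed near its control level of 2.04 to 3.35 CPM (median 2.37). Its range was 1.55 to 3.54 at 1 Hz, 1.91 to 3.90 at 4 Hz, and 1.5 to 2.97 at 10 Hz, and its log2(fold change) was 0.09 at both 1 and 4 Hz (adjusted p = 0.746 and 0.730). Myoz3 had between 0 and 10 estimated counts in each library, or at most 0.638 CPM, and a difference was not detectable at this depth.

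Neither alpha-actinin passed the test at 1 or 4 Hz. Actn3 ran from 487 to 592 CPM in the controls (median 499), from 332 to 576 at 1 Hz (458), from 459 to 608 at 4 Hz (537), and from 427 to 524 at 10 Hz (458). Actn2 ran from 141 to 180 CPM in the controls (median 154), from 95.8 to 207 at 1 Hz (145), from 153 to 168 at 4 Hz (162), and from 102 to 160 at 10 Hz (115). At 10 Hz 5 of 6 libraries were below every control for each gene. For Actn3, the change was -0.19 (log2) with 1 Hz (SE 0.095, adjusted p = 0.120) and 0.04 with 4 Hz, where the adjusted p was 0.722. For Actn2 these were -0.07 (adjusted p = 0.658) and 0.05, where the adjusted p was 0.737. Without 1 Hz replicate 4, the deepest library, Actn3 passed as lower at 1 Hz (-0.29, adjusted p = 0.0152). In 10 Hz replicate 5 the estimated counts of both genes were not whole within 0.01, although their sum was. Whole counts in the other libraries do not show that no reads were shared by these similar genes, so their separate levels are uncertain to that extent.

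**Figure D3:**
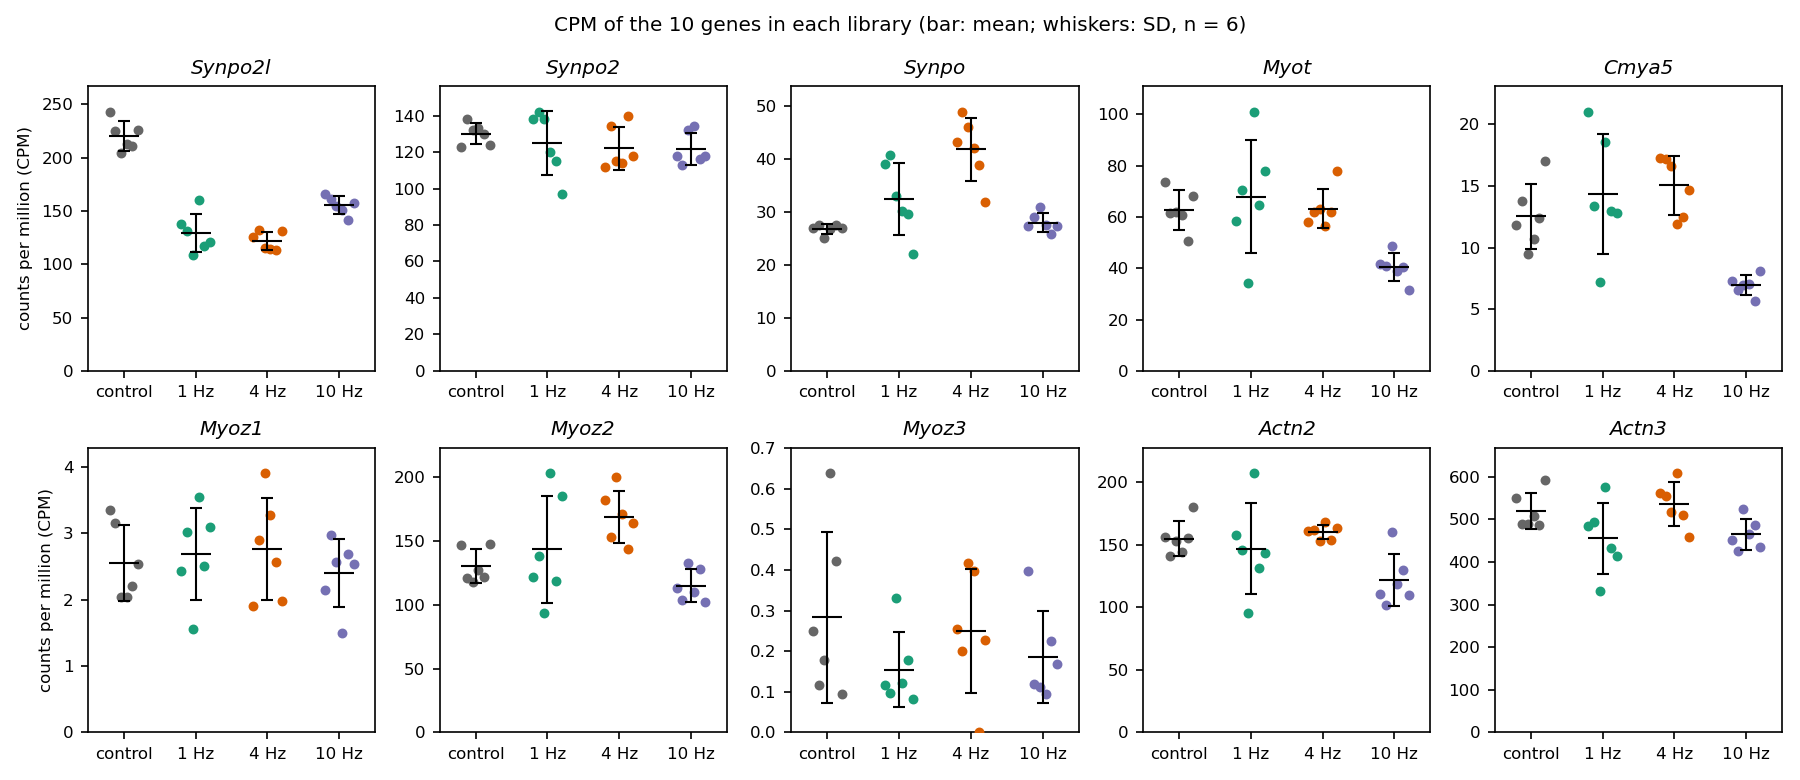
CPM of each of the 10 genes in each of the 24 libraries by group (points), with the mean as a bar and the SD as whiskers, n = 6 per group, and a separate vertical axis from 0 for each gene. Synpo2l is below all controls at every frequency, Synpo is above all controls at 4 Hz, and Myot and Cmya5 are below all controls at 10 Hz.

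Over the 9 tested members, 1 fell at 1 Hz (Synpo2l) and 0 rose, where 18.1% of all 13315 genes tested fell and 19.2% rose. At 4 Hz 1 fell (Synpo2l) and 2 rose (Synpo and Myoz2), where 23.9% of all genes fell and 27.5% rose. Between 4 and 1 Hz 0 members and 0 of all genes passed (0%), with 1465 genes at an unadjusted p under 0.05. With a log2(fold change) beyond 0.5 also asked for, Synpo2l remained at both frequencies and Synpo at 4 Hz, where 7.74% of all genes were lower at 1 Hz, 12.3% lower at 4 Hz, and 12.8% higher at 4 Hz. For 8.58% of all genes, the 1 Hz libraries lay wholly below the controls, as those of Synpo2l did, and the shares were 14.7% for 4 Hz and 0.864% for 10 Hz, from the last of which nothing is read. The 4 Hz libraries lay wholly above the controls for 12.9%, as for Synpo. Between 10 and 4 Hz, the 10 Hz libraries lay wholly above for 10.8% of all genes, as for Synpo2l, and wholly below for 8.1%, as for Synpo, Myot, Cmya5, and Myoz2. The same 10 Hz libraries gave the results known when the members were chosen. Nothing is therefore read from the number of members beside these shares.

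**Figure D4:**
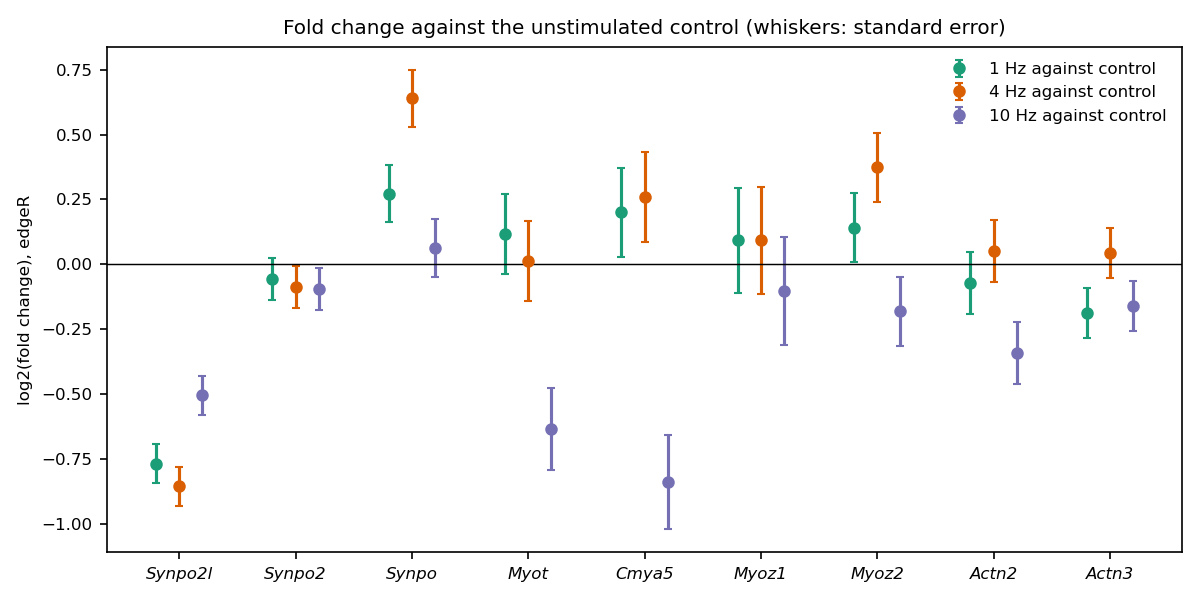
Log2(fold change) of the 9 tested genes against the unstimulated control at 1, 4, and 10 Hz (points, edgeR), with standard errors as whiskers. Synpo2l is lowest at 1 and 4 Hz (-0.77 and -0.86), whereas Myot (-0.64) and Cmya5 (-0.84) are lowest at 10 Hz, and Synpo is highest at 4 Hz (0.64).

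Over all genes tested, the middle log2(fold change) lay near 0 with TMM (0.041 for 1 Hz and 0.061 for 4 Hz) but at -0.144 and -0.209 on the log2(TPM + 1) scale. On that scale, 3.58% of all genes were higher and 21.9% lower at 1 Hz, and 5.83% higher and 35.9% lower at 4 Hz (limma). There, at 4 Hz, 1 member was higher (Synpo) and 2 were lower (Synpo2l and Synpo2). Relative to the median of all genes, Synpo2l was at -0.81 on the TMM scale and -0.85 on the TPM scale at 1 Hz, and at -0.92 and -0.98 at 4 Hz. Synpo at 4 Hz was at 0.58 and 0.57. Myoz2 at 4 Hz was at 0.31 and 0.22, and Synpo2 at -0.15 and -0.19. With the median not taken off, Synpo at 4 Hz was at 0.64 with TMM. On the log2(TPM + 1) scale it was at 0.36 (adjusted p = 0.0187, limma). In TPM, 5 of 6 libraries at 4 Hz were above every control for Synpo.

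Shares within a family do not depend on the scaling of libraries. Synpo2l held 73.1% ± 1.62 (SD, n = 6) of the summed TPM of the 3 synaptopodin genes in unstimulated tissue, which became 59.6% ± 4.31 with 1 Hz, 56.7% ± 2.95 with 4 Hz, and 66.0% ± 2.12 with 10 Hz. The share of Synpo was 6.88% ± 0.234 without stimulation, 13.1% ± 0.944 with 1 Hz, 16.4% ± 2.34 with 4 Hz, and 9.82% ± 1.13 with 10 Hz, and that of Synpo2 was 20.0% ± 1.47, 27.3% ± 3.59, 26.9% ± 2.15, and 24.2% ± 1.61. For all 3 genes, the shares of every stimulated group lay wholly outside those of the controls. At 1 Hz and at 4 Hz against control, each of the 3 shares reached the smallest p that 6 against 6 libraries allow (two-sided exact permutation test, p = 0.00216, adjusted p = 0.00758 over 21 tests). Since shares add up to 100%, these 3 tests are not independent. A fall of Synpo2l by itself raises the shares of Synpo2 and Synpo. The Synpo share was 3.32 percentage points higher at 4 than at 1 Hz (exact permutation p = 0.0173, adjusted p = 0.0519). The CPM of Synpo2 itself did not pass, as given above.

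**Figure D5:**
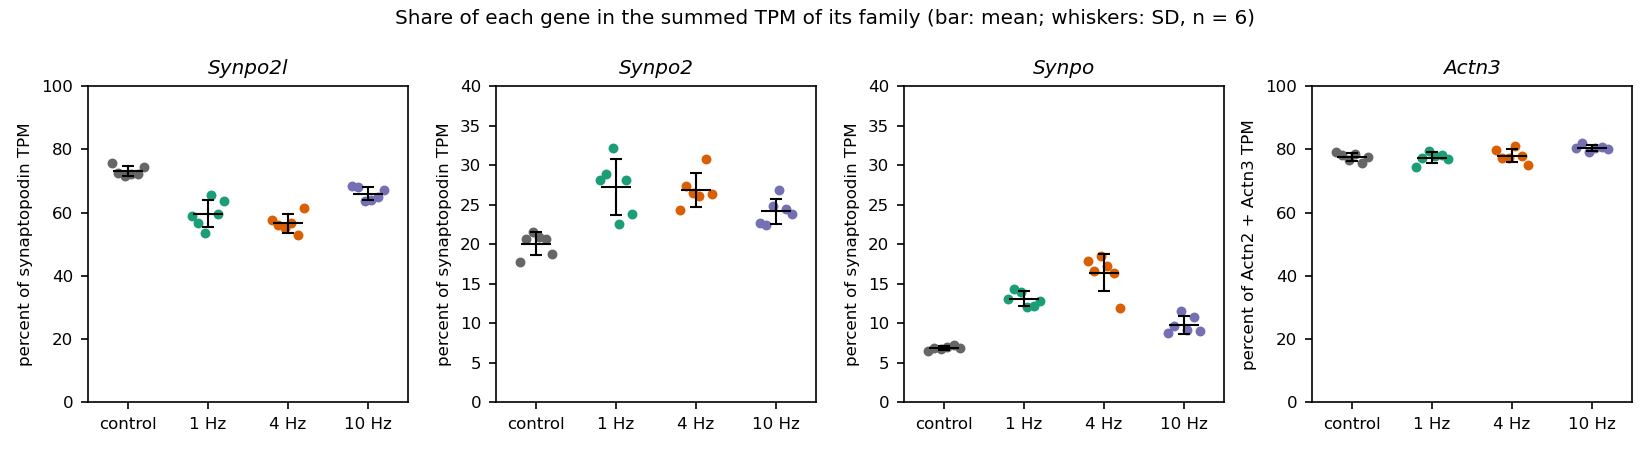
Share in percent of Synpo2l, Synpo2, and Synpo in the summed TPM of the 3 synaptopodin genes, and of Actn3 in the TPM of Actn2 and Actn3, in each library by group (points), with mean and SD (bar and whiskers, n = 6). The Synpo2l share is 73.1% in the controls and 56.7% at 4 Hz, and the Synpo share is 6.88% and 16.4%.

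In the other families the shares moved by fewer percentage points. Because Myoz2 held nearly all of the myozenin TPM, a moderate change of a myozenin gene could move these shares only little. The myozenin shares are therefore no measure of stability to set beside those of the synaptopodin genes. Myoz2 had 98.3% ± 0.287 of the myozenin TPM in the controls, with group means from 97.8% to 98.3% under stimulation, and Myoz1 had 1.65% ± 0.318 in the controls. The Actn3 share of the sarcomeric alpha-actinin TPM was 77.6% ± 1.27 in the controls, 77.3% ± 1.73 at 1 Hz, and 78.0% ± 2.07 at 4 Hz. None of the myozenin or Actn3 shares passed at 1 or 4 Hz or between them (adjusted p from 0.509 to 0.976, exact permutation test). At 10 Hz the Actn3 share was 80.5% ± 0.889, from 79.2% to 82.0%, above all controls, as a description.

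The labelled cell type was checked by marker genes. All 12 myotube markers, such as Acta1 and Ckm, passed the filter, with a summed level of 24400 to 30700 TPM in the controls. Against control, their mean log2 CPM differed by 0.045 with 1 Hz, 0.299 with 4 Hz, and -0.132 with 10 Hz. Beside the rise of Myoz2 at 4 Hz, 3 of 6 libraries at 4 Hz were above every control in this marker mean, and beside the 10 Hz values of Myot, Cmya5, and Actn2, 4 of 6 libraries at 10 Hz were below every control. Relative to the 12 markers, a scale chosen after seeing the data, Synpo2l differed by -0.82 at 1 Hz and -1.16 at 4 Hz (both adjusted p = 0.0146 over 27 tests, exact permutation test) and by -0.33 between 4 and 1 Hz (adjusted p = 0.0417). On the same scale Synpo differed by 0.33 at 4 Hz (adjusted p = 0.0195, exact permutation test), and Myoz2 by 0.07 (adjusted p = 0.386). Actn2 at 4 Hz (-0.24, adjusted p = 0.0146, exact permutation test) and Actn3 at 1 and 4 Hz (-0.25 and -0.26, adjusted p = 0.0195 and 0.0146) were then lower than in the controls. At 10 Hz, Myot was at -0.50 and Cmya5 at -0.68 relative to the markers.

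Of the markers of other cells, 0 of 3 endothelial and 0 of 3 macrophage genes passed the filter. The 4 markers of undifferentiated and cycling myoblasts summed to 14.2 to 17.1 TPM in unstimulated tissue, and to 22.9 to 34.4 with 1 Hz, 15.7 to 24.8 with 4 Hz, and 17.5 to 24.9 with 10 Hz. These genes did not move together. In the edgeR fit Myf5 rose (1.32 at 1 Hz and 1.17 at 4 Hz), whereas Pax7 fell at both (-1.58 and -1.53) and the cycling marker Mki67 fell at 4 Hz (-1.15, adjusted p = 0.0287). Mki67 was low, with a mean of 2.73 CPM in the controls (highest library 5.83) and 1.27 at 4 Hz. The other cycling marker of the list did not pass at 1 or 4 Hz. The 5 fibroblast markers summed to medians of 454, 447, 384, and 507 TPM in that order. Within this list, too, the calls at 1 and 4 Hz were opposite, with Col1a1 lower (-0.70 and -0.71), and Dcn (0.39 and 0.43) and Pdgfra (0.28 and 0.36) higher. The 4 smooth muscle markers, of which 3 passed and Myh11 was under 0.1 TPM, summed to medians of 663, 653, 469, and 709 TPM, with Tagln higher at 1 Hz (0.36) and Acta2 lower at 4 Hz (-0.41). The part of these cell markers in the results was not tested. Among the cardiac markers, 2 of 5 passed the filter, of which the myosin Myh6 rose at 4 Hz (0.53), and Myl7 was at 0 in all libraries.

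Lists of partner genes were counted in the same fit. Of 28 other Z-disc genes 27 were tested, and they had a median log2(fold change) of 0.016 with 1 Hz and 0.046 with 4 Hz, beside 0.041 and 0.061 over all genes. At 1 Hz 3 rose, namely the PDZ and LIM protein Pdlim5 (0.28), nexilin (Nexn, 0.46), and the alpha-actinin-binding Ldb3 (0.18), and 4 fell, among them Cavin4 (-0.36), the desmin-binding Sync (-0.56), and the non-muscle alpha-actinin Actn4 (-0.37), where 19.2% of all genes rose and 18.1% fell. At 4 Hz 5 rose, among them Pdlim3 (0.42), the muscle LIM protein Csrp3 (0.72), and Ldb3 (0.28), and 5 fell, among them Actn4 (-0.58), Cavin4 (-0.32), and Sync (-0.56), where 27.5% and 23.9% of all genes did. In this edgeR fit, these counts are not above the shares over all genes. Of the genes named here, Csrp3 was the only one of those that rose that also passed on the log2(TPM + 1) scale (0.37), while Actn4, Cavin4, and Sync also passed there as lower at both frequencies and Ldb3 had the opposite sign (-0.16 and -0.08). On that scale 0 of the 27 were higher and 10 lower at 1 Hz, beside 3.58% and 21.9% of all genes, and 1 higher and 12 lower at 4 Hz, beside 5.83% and 35.9%. There the counts of lower genes were above the shares over all genes, which was not tested. The median of the list was -0.268 at 1 Hz and -0.319 at 4 Hz, beside -0.144 and -0.209 over all genes.

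Of the 5 genes of the Bag3 complex, with which Synpo2 works, Sqstm1 (-0.27 at 1 Hz and -0.34 at 4 Hz) and the small heat shock protein Hspb8 (-0.30 and -0.25) fell at both frequencies, and the ubiquitin ligase Stub1 rose (0.34 and 0.40). In this edgeR fit 19.2% of all genes rose and 18.1% fell at 1 Hz, and 27.5% rose and 23.9% fell at 4 Hz. On the log2(TPM + 1) scale 0 were higher and 3 lower at each frequency, Sqstm1 and Hspb8 among them, beside the shares of all genes given above for that scale. Of 9 tested genes of calcineurin and NFAT, the phosphatase that myozenins bind and the factors it acts on, Rcan2 (0.55 and 0.43), Nfatc4 (0.96 and 1.12), and Ppp3cc (0.23 and 0.26) rose at 1 and 4 Hz. Nfatc3 fell at both (-0.60 and -0.78), and Ppp3r1 (-0.34) and Nfatc1 (-0.70) fell at 4 Hz. These calls, too, stand beside the edgeR shares of all genes just given. On the log2(TPM + 1) scale 0 were higher, with 2 lower at 1 Hz and 6 at 4 Hz, where 21.9% and 35.9% of all genes were lower, including Nfatc3 at both, and Ppp3cc at 4 Hz had the opposite sign (-0.08). For the 3 lists, 0 genes passed between 4 and 1 Hz, as over all genes.

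The genes whose log2 CPM most resembled each member over the 24 libraries are given by Pearson r, as a description, since the libraries share groups, depth, and the myotube level. For Myoz2 they were the light chain Myl1 (0.985) and the troponins Tnni1 (0.976) and Tnnc2 (0.975), 2 of which are among the 12 myotube markers. Myot was nearest to Eef1a2 (0.966), Car14 (0.965), and Lmcd1 (0.941). Actn2 was nearest to the M-band gene Myom2 (0.909), Adprhl1 (0.903), and Pygm (0.901), Actn3 to Crat (0.882), Coro6 (0.878), and Klhl40 (0.876), and Cmya5 to Myom1 (0.862), Mybpc1 (0.860), and Usp13 (0.860). Synpo2l was nearest to Zdhhc6 (0.922), Fubp1 (0.903), and Plet1 (0.898), and Synpo to Ncstn (0.900) and Sbno2 (0.875). Synpo2 (Zkscan8 0.792, Cat 0.774, Ide 0.732) and Myoz1 (Hrh3 0.773, Gm2895 0.691, Gtf3a 0.682) had lower values of r.

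Among the members themselves, r was 0.819 for Actn2 with Actn3, 0.814 for Myot with Actn2, 0.776 for Myoz2 with Actn2, and 0.765 for Myot with Cmya5. Synpo2l had an r of -0.575 with Synpo and 0.220 with Synpo2. After the mean of each group was removed, the r of Synpo2l was 0.721 with Cmya5, 0.626 with Myot, and 0.147 with Synpo. The r of neighbours was 0.009 for Synpo2l with Myoz1 and -0.422 for Synpo2 with Myoz2.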

How the data were processed

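RNA of 24 libraries (6 each of control, 1, 4, and 10 Hz) was analysed. Reads were processed by the authors with the nf-core/rnaseq pipeline on GRCm39, and Salmon estimated counts per gene, summed over transcripts and not normalized, were deposited, together with TPM per gene, which the authors' pipeline scaled to 1000000 per library. The study's methods name a directional library kit, but the strand setting used in counting is not given in the sources used here, so reads of the 5 members with a gene on the opposite strand (Synpo2l, Synpo2, Synpo, Cmya5, and Actn3) cannot be assigned with certainty. Low-input samples were ribodepleted per the labels, which do not name them.

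Estimated counts were rounded, filtered by filterByExpr (minimum count 10, minimum total 15), scaled by TMM, and tested in edgeR 4.0.16 (R 4.3.3) by a quasi-likelihood F test in 1 fit of 24 libraries, with Benjamini-Hochberg adjustment over 13315 genes and a threshold of 0.05. The common biological coefficient of variation was 14.8%, which with the depth sets how small a difference could be seen. Tested on simulated data (6 controls against 6 libraries at 1 Hz, 12827 genes), 97.9% of 192 changed genes were recovered, with 11 false calls. Recovery at the size and the variation of each member's own difference was not tested. Among the tested members, the coefficient of variation ran from 9.79% for Synpo2l to 19.9% for Cmya5. Family shares were tested by exact permutation in SciPy 1.17.1. Likeness is Pearson r of log2 CPM (prior count 2). The genes named are the 10 members, up to 3 genes per list and direction by p, and the 3 nearest genes by r, except that 1 gene of these and 1 marker gene are not reported here. The members and lists were chosen with earlier results of these data known. Alternatives were RLE and upper-quartile factors, a filter left out or raised to 50 counts in 6 libraries, 2 groups in the fit, DESeq2 1.42.0, limma 3.58.1 on log2(TPM + 1) and log2(TPM + 0.1), the replicate number as a block, leaving out each library, and values relative to myotube markers.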

Additional observations from a re-analysis of the deposited data

Results flagged for a closer look

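In groups of 6 libraries, a library was singled out where its gap to the nearest other, as a part of the range of the group, exceeded Dixon's 95% critical value, which chance gives in about 1 group in 20. Of 68 groups checked (10 genes and 7 shares in 4 groups), 7 had such a library. Synpo was lowest in control replicate 3 (25.0 CPM, the other controls from 26.8 to 27.6). Myot was highest in 4 Hz replicate 6 (77.8 CPM, the others at 63.2 or less). In the same library, the Synpo share of the synaptopodin TPM was the lowest of its group (11.9%). In 4 Hz replicate 5, the Myoz1 share of the myozenin TPM was high (3.49%) and that of Myoz2 low (96.5%). The Myoz3 share was high in 1 Hz replicate 3 (0.103%) and in 10 Hz replicate 1 (0.0954%), where it rests on few counts.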

How the results depend on the processing

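Synpo2l kept its direction and passed at 1 and 4 Hz, and Synpo at 4 Hz, under every alternative run for those comparisons. The sign of some other member values depended on the setting, as given below, while Synpo2 stayed below 0 at 1 and 4 Hz under all of them. The cause of the changes below was not tested. With depth of 8052369 counts or more, Myoz3 could not be assessed.

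Among the 9 tested members, 1 was higher at 1 Hz (Synpo) with upper-quartile factors (0.29, adjusted p = 0.0391), with the replicate block, and without 1 Hz replicate 5 or 6. At 4 Hz 1 was higher, in place of 2, with no filter, on log2(TPM + 1) and log2(TPM + 0.1), and relative to the myotube markers. There, 2 were lower at 4 Hz on both TPM scales, and relative to the markers 2 were lower at 1 Hz, 3 at 4 Hz, and 1 between 4 and 1 Hz.

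Signs turned against control as follows. On log2(TPM + 1) and log2(TPM + 0.1) at 1 Hz, Myot was at -0.16 and -0.16, Cmya5 at -0.027 and -0.063, and Myoz2 at -0.15 and -0.15. At 4 Hz on these scales, Myot was at -0.31 and -0.31, Cmya5 at -0.035 and -0.054, Myoz1 at -0.049 and -0.078, Actn2 at -0.25 and -0.25, and Actn3 at -0.21 and -0.21. Relative to the myotube markers at 4 Hz, Myot was at -0.29, Cmya5 at -0.031, Myoz1 at -0.21, Actn2 at -0.24, and Actn3 at -0.26. Myot at 4 Hz was at -0.013 with RLE factors, at -0.014 with 2 groups in the fit or DESeq2, and at -0.031 with no filter, where Actn3 was at -0.0004. Genes of calcineurin and NFAT that passed at 1 Hz were 2 with the strict filter and on both TPM scales, in place of 4. As shares of CPM, the difference between 4 and 1 Hz was 3.40 percentage points for Synpo (adjusted p = 0.039). As shares of CPM against control, Myoz1 was at -0.063 (1 Hz) and -0.312 (4 Hz), Myoz2 at 0.154 and 0.390, and Actn3 at -0.179 (4 Hz).

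Leaving out 1 library at a time gave 0 to 1 members higher and 1 to 2 lower at 1 Hz, and 1 to 2 higher at 4 Hz. At 1 Hz the ranges were -0.22 to 0.0074 for Actn2, -0.29 to -0.13 for Actn3, -0.055 to 0.23 for Myot, -0.033 to 0.19 for Myoz1, -0.0063 to 0.22 for Myoz2, and 0.20 to 0.33 for Synpo. The lowest of these for Actn2, Actn3, Myot, Myoz1, and Myoz2 came without 1 Hz replicate 4, and the highest for Actn2 without 1 Hz replicate 3. At 4 Hz they were -0.025 to 0.084 for Actn3, -0.060 to 0.062 for Myot, -0.050 to 0.18 for Myoz1, and 0.29 to 0.41 for Myoz2. The sign turned without 4 Hz replicate 4 for Actn3, without 4 Hz replicate 3 for Myoz1, and without any 1 of 5 libraries for Myot. In percentage points, the Actn3 share ranged from -0.706 to 0.337 at 1 Hz and -0.127 to 1.05 at 4 Hz, the Myoz1 share from -0.319 to 0.204 and the Myoz2 share from -0.183 to 0.331 at 4 Hz. Between 4 and 1 Hz the Myoz3 share ranged from -0.0020 to 0.0166, the Synpo2 share from -1.34 to 0.619, and the Synpo share from 2.91 to 4.22 (highest without 4 Hz replicate 6, adjusted p = 0.00649, exact permutation test).

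Same-numbered libraries had correlations of -0.172 to 0.242 in their deviations from the group means. This was checked for each frequency against control and for 4 against 1 Hz. No strong effect shared by number was seen, which cannot exclude that the numbers pair the samples. With the replicate block, Synpo at 1 Hz was at 0.25 (adjusted p = 0.044), and no other member call changed. For the shares with the block, an exact sign-flip permutation of 6 pairs left these at its smallest p (0.0312), or adjusted p = 0.109 over 21 tests, for Synpo2l (-13.5 and -16.4 points at 1 and 4 Hz), Synpo2 (7.25 and 6.88), and Synpo (6.24 and 9.56). With so high a smallest p these 6 tests could not pass, so they say nothing about stability.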
